A study of Mus musculus with 2 samples.

Results

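The genes described here are 10 core members of the Notch pathway, namely the receptors *Notch1*, *Notch2* and *Notch3*, the ligands *Dll1*, *Dll4* and *Jag1*, and the target genes *Hes1*, *Hey1*, *Hey2* and *Heyl*. They are 10 of 21779 protein-coding genes in the RefSeq annotation of GRCm38. Every CUT&Tag peak inside one of these genes or within 100 kb of it was taken, and the stretch from 100 kb before to 100 kb after a gene is called its window. DLX2 CUT&Tag was performed on maxillary process cells from E12.5 wildtype embryos of C57BL/6 mice, with a rabbit antibody against DLX2, a homeodomain transcription factor of the developing face. In CUT&Tag an antibody in permeable cells guides a transposase that cuts and tags the nearby DNA, so that fragments pile up where the target protein sits. The 2 libraries form a single group and are numbered as replicates by the order of the sample records, and whether they came from separate litters or from a pool is not given in the sources used here. With 1 wildtype group and no control library analysed here, the values are descriptions and no test was made. The 2 libraries hold no RNA values and the study's RNA data were not used here, so the tissue was not checked against marker genes.

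Notch signalling passes between touching cells. A Delta or Jagged ligand on one cell binds a Notch receptor on its neighbour, the receptor is cut, and its inner part enters the nucleus, where it joins the DNA-binding protein RBPJ and a Mastermind coactivator. This complex switches on genes of the Hes and Hey families, which encode basic helix-loop-helix repressors. The pathway keeps progenitor cells from differentiating too early, and in the face it takes part in neural crest, bone and palate development.

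No peak of either replicate overlapped the reference promoters at hand for these genes. RefSeq promoter sequences, each running from 250 bases before the transcription start to 50 after it, covered 7 of the 10 genes, and 0 of their 8 entries lay under a peak. The share of all promoter entries under a peak was not computed, so the promoter counts given here have no background beside them. Among the 60 promoter entries of all genes in the 10 windows, 1 lay under a peak. It belongs to *4632428C04Rik*, a neighbour of *Hes1*, and lies in a replicate 2 peak at chr16:30008235-30008740 that replicate 1 did not have. Its sequence in GRCm38, chr16:30008417-30008716 on the plus strand, is shown because no other promoter entry of the windows lay under a peak. The 21 capitals are centred on the summit of the replicate 2 peak.
4632428C04Rik: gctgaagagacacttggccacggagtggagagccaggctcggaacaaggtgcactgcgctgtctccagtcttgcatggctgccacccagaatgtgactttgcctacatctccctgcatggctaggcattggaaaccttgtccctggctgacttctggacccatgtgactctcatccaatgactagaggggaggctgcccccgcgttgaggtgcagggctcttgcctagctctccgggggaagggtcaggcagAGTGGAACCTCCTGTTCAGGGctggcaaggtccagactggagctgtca
The second sequence is the promoter of *Notch3*, the 1 gene of the 10 with a peak of both replicates within 2 kb of its known start. It holds the 250 bases before the start, chr17:32166891-32167140 on the minus strand, and the 10 capitals are the bases next to the start.
Notch3: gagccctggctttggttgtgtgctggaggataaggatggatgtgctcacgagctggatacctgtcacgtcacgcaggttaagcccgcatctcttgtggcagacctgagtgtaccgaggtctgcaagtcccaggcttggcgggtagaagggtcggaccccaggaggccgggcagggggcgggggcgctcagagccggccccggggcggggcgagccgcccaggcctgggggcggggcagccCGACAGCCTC
Short words of the homeodomain and RBPJ families were looked for on both strands of these promoters. The homeodomain words TAATTA and TAATTG occur in 5.29% and 8.00% of all 32851 promoter entries, and the RBPJ word GTGGGAA in 6.38%. None of the 3 was found in either promoter above. Among the 8 entries of the pathway genes, GTGGGAA occurred in that of *Hey2* alone, where it was found at 2 positions, and the homeodomain words in none.

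The windows held 55 peaks in replicate 1, of 28061 in the whole list, and 114 in replicate 2, of 62093. Their ratio of 2.07 was close to that of the whole lists, 2.21. All 10 genes had a replicate 1 peak in the window, as did 83.0% of protein-coding genes, and 9 had a replicate 2 peak, against 91.7%. The peaks of the replicates overlapped by at least 1 bp in 20 segments, called shared regions, of 10883 on the numbered chromosomes, X and Y. These lay in the windows of 7 genes: *Notch1*, *Notch3*, *Dll1*, *Dll4*, *Hes1*, *Hey1* and *Heyl*. Among all protein-coding genes 60.2% had a shared region in the window, so 7 of 10 is near the background.

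The number of shared regions differed between the genes. It was 4 for *Notch1* and *Notch3*, 3 for *Dll4*, *Hes1* and *Heyl*, 2 for *Hey1*, 1 for *Dll1* and 0 for *Notch2*, *Jag1* and *Hey2*. The median was 2.5, against 1 over all protein-coding genes. Thus 6 of the 10 genes had 2 or more, as did 35.3% of protein-coding genes, 5 had 3 or more, against 18.4%, and 2 had 4 or more, against 9.40%. Per unit of length, the windows held 8.63 shared regions per Mb, against 4.86 in the merged windows of all protein-coding genes, a ratio of 1.78. The same ratio was 1.88 for replicate 1 peaks and 1.75 for replicate 2 peaks, so the windows were richer in peaks of each list, weakly called ones included. Sequence near more than 1 gene counts once in the merged windows. For stronger regions no ratio per Mb was computed, and the counts differed with the measure. Both folds reached 5 at 5 of the 20 shared regions, against 35.1% of all shared regions. Such a region lay in the window of 5 of the 10 genes, against 28.6% of protein-coding genes. A region with both −log10 q values of at least 5 lay in the window of 1 of the 10 genes, against 14.9% of protein-coding genes. The 10 windows also differ in how many other coding genes they hold, from 0 around *Hes1* to 8 around *Notch1*, with a median of 4 over all coding genes. The part of gene density in the peak counts was not tested.

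**Figure D1:**
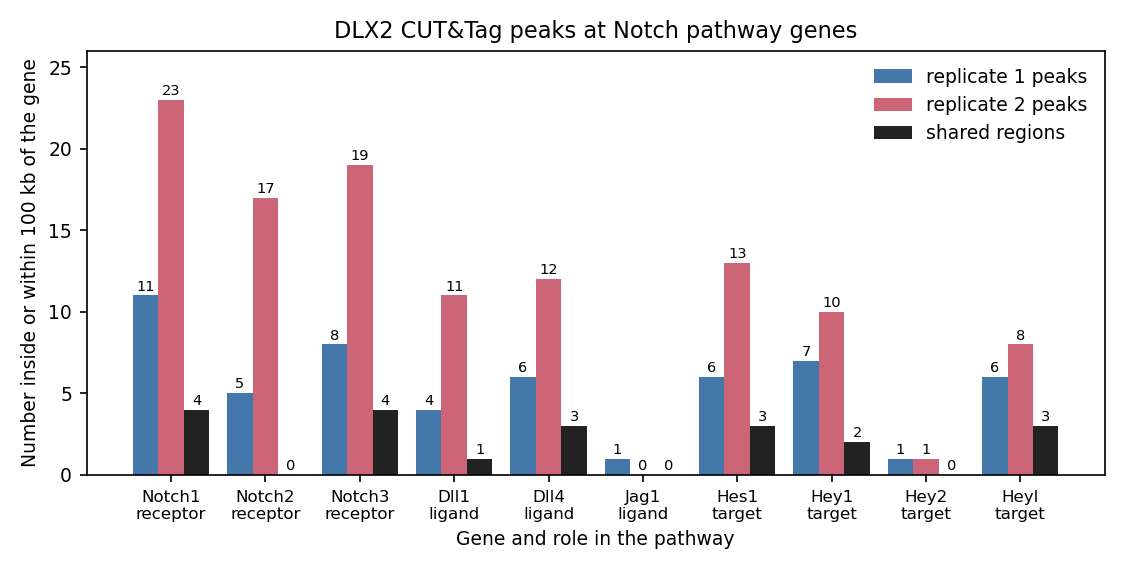
Bars give the number of replicate 1 peaks, replicate 2 peaks and shared regions inside or within 100 kb of each gene (vertical axis, count), with the role of the gene in the pathway below its name. *Notch1* has the most peaks in both replicates (11 and 23), whereas *Jag1* and *Hey2* have at most 1 peak in each.

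**Figure D2:**
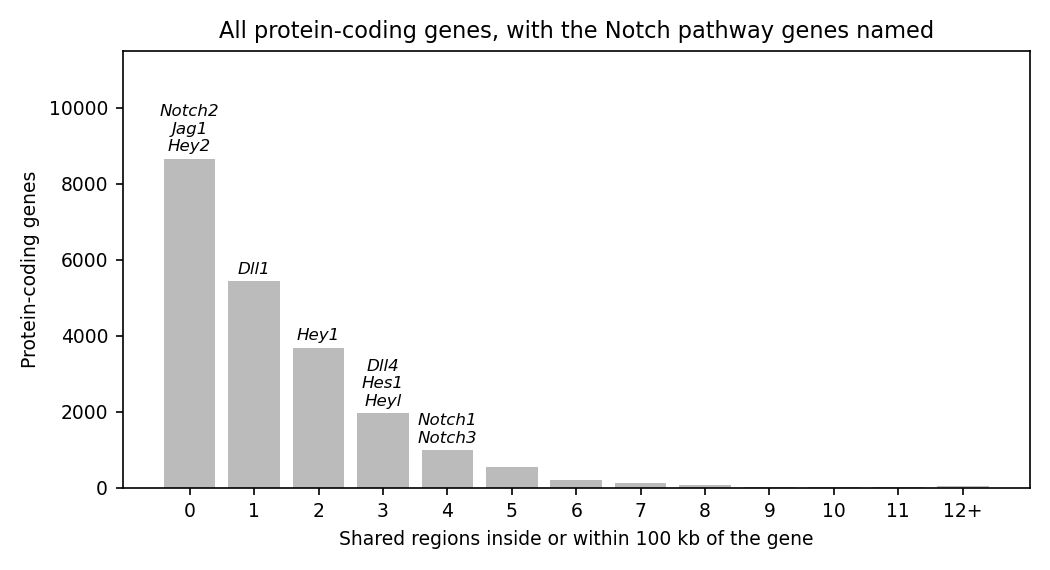
Bars count the 21779 protein-coding genes by the number of shared regions inside or within 100 kb of them, with 12 or more drawn together, and each Notch pathway gene is named above its bar. *Notch2*, *Jag1* and *Hey2* stand with the 8659 genes that have 0, and *Notch1* and *Notch3* with the 990 genes that have 4.

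Most shared regions lay outside the genes. Of the 20, 4 were inside a pathway gene, 3 of them in *Notch3* and 1 in *Dll4*, and the other 16 lay in flanking sequence. In single replicates, 5 of 10 genes held a replicate 1 peak, against 30.6% of protein-coding genes, and 5 a replicate 2 peak, against 48.8%. In both, 2 of 10 genes held a shared region, against 14.6% of all protein-coding genes. With 2 kb added at each end the count became 4 of 10, against 16.0%, through regions beside *Hey1* and *Heyl*. The pathway gene itself held the region or was the nearest protein-coding gene for 12 of the 20. These 12 belonged to 6 genes, whereas 25.8% of all protein-coding genes have such a region. The other 8 were held by, or nearer to, another gene, so they cannot be assigned to the pathway gene by position. The shared region nearest the inner edge of a window lay 98.6 kb from *Notch1*, and the first one beyond an edge lay 125 kb from *Hes1*. The annotation used gives gene extents without exons, so regions inside a gene could not be split into exonic and intronic.

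Among the receptors, *Notch3* had the most shared regions within the gene. *Notch3*, a receptor best known from the smooth muscle cells and pericytes around vessels, lies at chr17:32120820-32166896 on the minus strand. Its window held 8 peaks in replicate 1 and 19 in replicate 2, of which 5 and 7 lay in the gene. All 4 shared regions had *Notch3* as the nearest or holding coding gene. The region at chr17:32141228-32141341, in the gene and 25.5 kb from its start, had a replicate 1 fold of 4.41 and a replicate 2 fold of 7.39, where fold is the peak caller's ratio of fragments at the summit to local background. Behind these folds stood 6 fragments in replicate 1 and 20 in replicate 2, as inferred from the deposited values. The replicate 2 fold was the highest of the 114 peaks of that replicate in the windows, and the same place was weaker in replicate 1. The predicted gene *Gm41568* overlaps it.

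Closer to the start of *Notch3*, a shared region at chr17:32165306-32165424 lay inside the gene, 1.47 kb from the start. Its fold was 3.45 in replicate 1, on 5 fragments, and 4.13 in replicate 2, on 11 fragments. It was the only shared region within 2 kb of a known start of a pathway gene. Its summits in the 2 replicates were 188 bp apart, against a median of 60.5 bp over the 20 shared regions. Its lower fold was above that of only 8.01% of all shared regions. Between these, 27 bp at chr17:32158263-32158289 were common to a replicate 1 peak with a fold of 4.51 and a replicate 2 peak with a fold of 3.91. The fourth region, chr17:32100519-32100628, lay 20.2 kb downstream of the gene, with folds of 5.68 and 4.66.

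*Notch1*, a receptor that maintains progenitor cells in many tissues, lies at chr2:26457902-26503822 on the minus strand and had the most peaks, 11 in replicate 1 and 23 in replicate 2. Only 2.12% of protein-coding genes had more replicate 1 peaks in the window and 2.07% more replicate 2 peaks. These counts are of the whole window, which holds 8 other coding genes, against a median of 4. Many of the peaks lay in or nearest to genes such as *Inpp5e*, *Sec16a* and *Egfl7*, and cannot be assigned to *Notch1* by position. None of the 4 shared regions of the *Notch1* window lay in the gene, although 2 replicate 1 peaks and 4 replicate 2 peaks did. A pair of shared regions lay upstream, between *Notch1* and *Egfl7*, with *Notch1* as the nearest coding gene. The first, chr2:26528767-26529063, was 24.9 kb from the start and had a replicate 1 fold of 5.29 and a replicate 2 fold of 5.38, on 11 and 21 fragments. At 297 bp it was the longest of the 20 shared regions, and the replicates were alike in fold, with summits 115 bp apart. The second, chr2:26532382-26532475, was 28.6 kb from the start, with folds of 4.77 and 3.08. The other shared regions in the window lay 60.2 kb upstream, nearest to *Egfl7*, a gene of vessel lining cells, with folds of 4.43 and 4.02, and 98.6 kb downstream in *Card9*, with folds of 4.52 and 3.22. The peak nearest the *Notch1* start was in replicate 2 alone, 1.94 kb upstream, with a fold of 3.87 on 10 fragments.

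*Notch2*, the longest of the 10 genes at 137 kb, lies at chr3:98013538-98150367 on the plus strand and had no shared region. The gene held 3 replicate 1 peaks and 8 replicate 2 peaks, with folds of 3.38 to 3.53 in replicate 1 and 3.45 to 4.39 in replicate 2. None met a peak of the other replicate. The closest approach was 490 bp, between a replicate 1 peak at chr3:98128023-98128162 with a fold of 3.47 and a replicate 2 peak at chr3:98128652-98128950 with a fold of 4.34. The strongest replicate 1 peak of the window lay 4.82 kb upstream of the gene with a fold of 5.05, and the next replicate 2 peak was 31.4 kb away. The nearest shared region was 166 kb from *Notch2*.

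The ligand genes had fewer shared regions, 4 in all. *Dll4*, the Delta ligand of sprouting vessels, lies at chr2:119325784-119335666 on the plus strand and had 6 peaks in replicate 1 and 12 in replicate 2. A shared region inside the gene, chr2:119329856-119329994, lay 4.07 kb from the start, with a replicate 1 fold of 5.19 and a replicate 2 fold of 5.07, on 8 and 15 fragments. The summits of the replicates were 7 bp apart there, so the 2 libraries placed this peak at nearly the same base. The flanking regions belonged by position to other genes. One, chr2:119293619-119293720, lay in *Vps18*, 32.1 kb upstream, with folds of 4.70 and 4.33. The other, chr2:119356721-119356881, lay 21.1 kb downstream and 2.395 kb from *Chac1*, with folds of 4.30 and 6.11.

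*Dll1*, the Delta ligand of neurogenesis and somite formation, lies at chr17:15367354-15376932 on the minus strand. It had 4 peaks in replicate 1 and 11 in replicate 2, and its 1 shared region, chr17:15419699-15419790, lay in the neighbouring gene *Fam120b*, 42.8 kb upstream. The folds there were 4.59 in replicate 1 and 5.004 in replicate 2. Inside *Dll1* replicate 1 had 1 peak, with a fold of 4.37 on 6 fragments, and replicate 2 had none.

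*Jag1*, the ligand mutated in Alagille syndrome, lies at chr2:137081451-137116520 on the minus strand and was the poorest in peaks. Its window held 1 replicate 1 peak, at chr2:137159376-137159496, and no replicate 2 peak, which was so for 8.33% of protein-coding genes. The replicate 1 peak lay 42.9 kb upstream, with a fold of 7.21 on 9 fragments and a −log10 q of 6.33. The next replicate 2 peak was 145 kb from it, although 86.1% of the 938 replicate 1 peaks with a fold of 7 to 8 overlapped one of replicate 2. The nearest shared region was 1093 kb from *Jag1*, and 6.35% of protein-coding genes lay farther than 1000 kb from one.

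Among the target genes, *Hes1* had 3 shared regions, each with *Hes1* as the nearest coding gene. *Hes1*, which encodes an oscillating repressor of differentiation, lies at chr16:30065357-30067796, and its window held no other coding gene. It had 6 peaks in replicate 1 and 13 in replicate 2, none inside the 2.44 kb gene. The strand of *Hes1*, *Hey1* and *Heyl* was not in the tables used here, so their regions are placed by coordinate only. The region at chr16:30083908-30084077 lay 16.1 kb above the gene, with a replicate 1 fold of 5.39 and a replicate 2 fold of 5.18, on 8 and 12 fragments. The one at chr16:30115592-30115713 lay 47.8 kb above it, with folds of 4.85 and 5.59 on 6 and 12 fragments. The replicates differed little in fold at both places, and their summits were 43 and 41 bp apart. On the other side, 67.3 kb below the gene, chr16:29998050-29998089 had folds of 3.37 and 3.75 on 4 and 8 fragments. This was the lowest replicate 1 fold of the 20 regions. The promoter of *4632428C04Rik* printed above lies on this side, 56.6 kb from *Hes1*, under a replicate 2 peak with a fold of 4.63 on 10 fragments.

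*Heyl* and *Hey1* each had a shared region within 2 kb of a gene end. *Heyl*, a Hey family repressor, lies at chr4:123233556-123249870 and had 6 peaks in replicate 1 and 8 in replicate 2. The region at chr4:123251747-123251881, 1.88 kb beyond its upper end, had a replicate 1 fold of 7.68 and a replicate 2 fold of 6.19, on 12 and 15 fragments. Its summits were 0 bp apart, and its lower fold was the highest of the 20 regions, above that of 87.1% of all shared regions. Its −log10 q was 7.45 in replicate 1 and 6.84 in replicate 2, and it was the only region of the 20 at which both values reached 5. Such a region lay in the window of 14.9% of protein-coding genes. The other shared regions of the *Heyl* window lay in *Bmp8a*, a bone morphogenetic protein gene, 63.8 and 71.0 kb from *Heyl*. Their folds were 3.48 and 4.24 at the first, and 5.51 and 4.24 at the second, with replicate 1 named first.

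*Hey1*, another repressor of the family, lies at chr3:8663359-8667038 and had 7 peaks in replicate 1 and 10 in replicate 2. The region at chr3:8662236-8662358 was 1001 bp below its lower end, with a replicate 1 fold of 4.33 and a replicate 2 fold of 6.19, on 5 and 12 fragments. The region at chr3:8730444-8730568 lay 63.4 kb above its upper end, with folds of 5.602 and 6.17 on 8 and 14 fragments. Its nearest coding gene was the predicted gene *LOC115489673*, which overlaps *Hey1*. *Hey2*, the member of the family best known from the heart and arteries, lies at chr10:30832359-30842783 on the minus strand and had 1 peak in each replicate. Both lay in *Ncoa7* and 40.5 kb apart, the replicate 1 peak with a fold of 5.05 and the replicate 2 peak with a fold of 3.81. The nearest shared region was 375 kb from *Hey2*. A window with at most 1 peak of each replicate, as at *Jag1* and *Hey2*, was found for 13.5% of protein-coding genes.

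**Figure D3:**
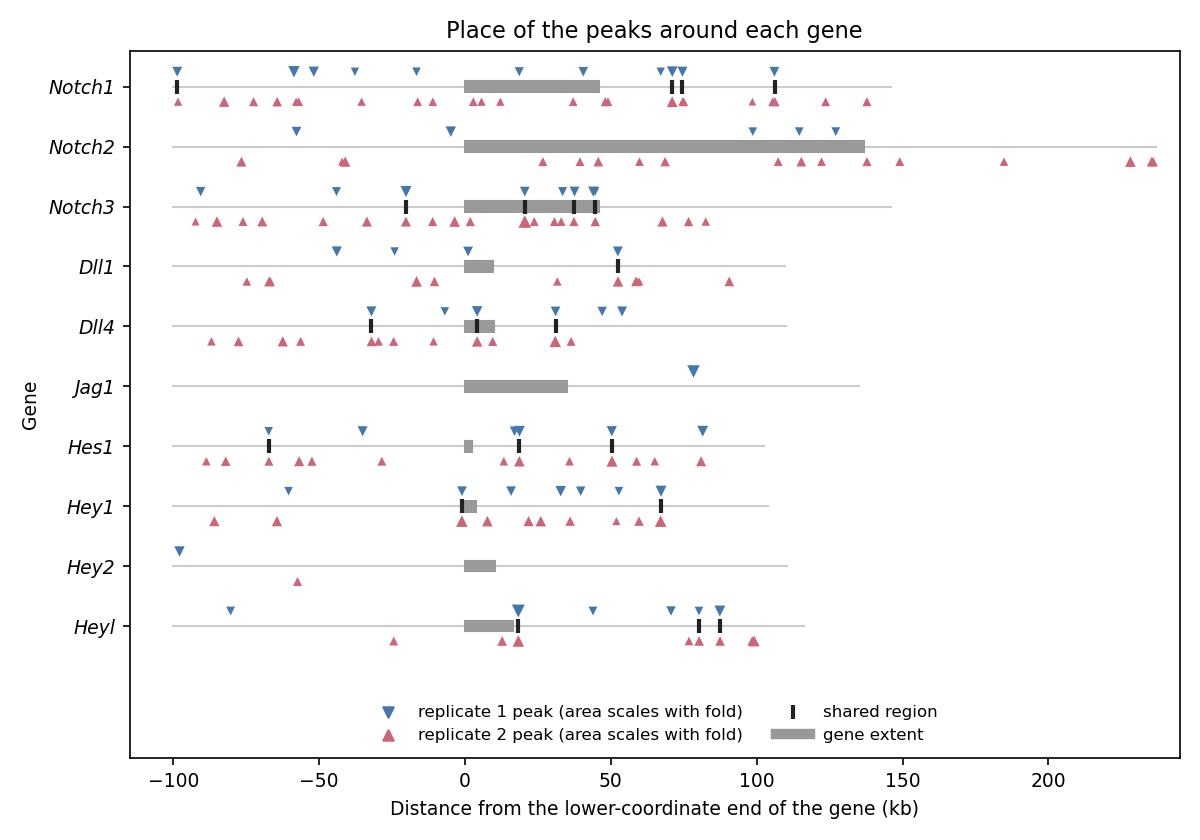
Each line is the window of a gene, with the distance in kb from the lower-coordinate end of the gene on the horizontal axis and the gene extent as a grey bar. Triangles mark replicate 1 peaks (above) and replicate 2 peaks (below) with an area that scales with fold, and black ticks mark shared regions. *Notch3* has 3 ticks inside the gene and *Dll4* has 1, *Hey1* and *Heyl* have a tick beside the gene, and *Notch2* has peaks of both replicates but no tick.

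The 20 shared regions were ordinary in strength for these lists. Their median fold was 4.65 in replicate 1, against 5.05 over all shared regions, and 4.83 in replicate 2, against 5.12. Replicate 2 had the higher fold at 10 regions and replicate 1 at the other 10, whereas 49.6% of all shared regions were higher in replicate 2. Both folds reached 5 at 5 of the 20, against 35.1% of all shared regions. These were 1 region each at *Notch1*, *Dll4*, *Hes1*, *Hey1* and *Heyl*, and 28.6% of protein-coding genes had such a region in the window. Replicate 2 had more fragments at the summit of all 20, with a median of 12 against 7 in replicate 1. The same medians, 12 and 7, were found over all shared regions. The summits of the replicates were a median of 60.5 bp apart, with a range of 0 to 246 bp, against a median of 63.0 bp over all shared regions.

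**Figure D4:**
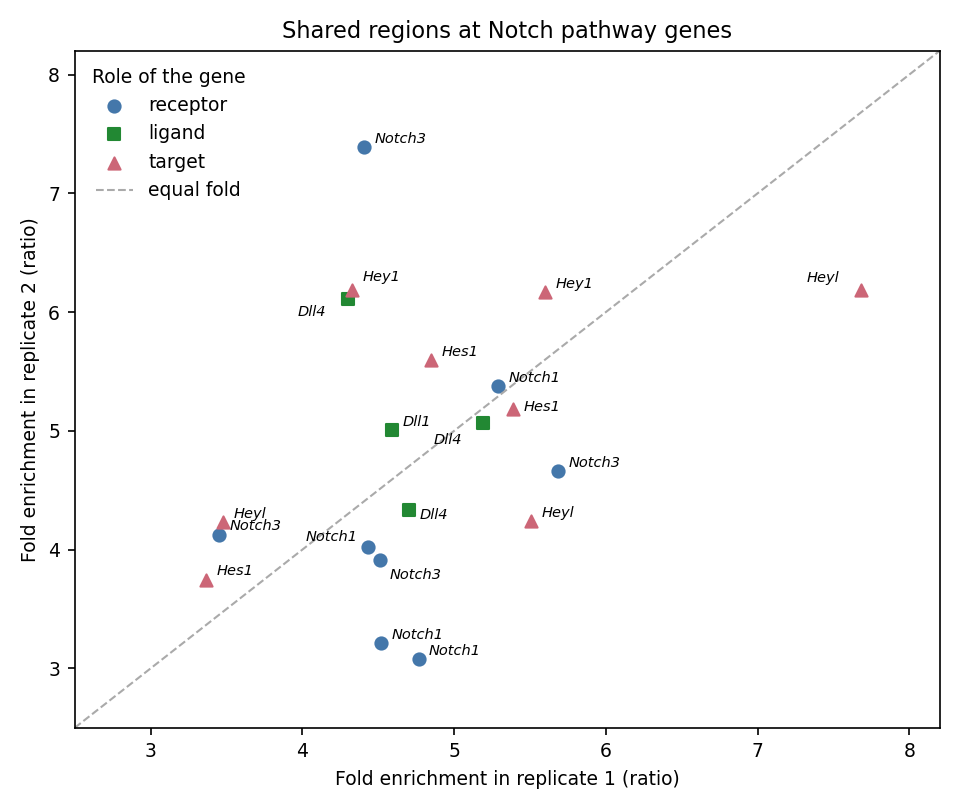
Each point is one of the 20 shared regions, with its fold enrichment in replicate 1 on the horizontal axis and in replicate 2 on the vertical axis, both as ratios. Colour and shape give the role of the gene in whose window it lies, and the dashed line marks equal folds. The *Heyl* region at 7.68 and 6.19 and the *Notch3* region at 4.41 and 7.39 stand farthest out, and points of all 3 roles lie on both sides of the line.

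Most peaks in the windows were found in 1 replicate only. Replicate 2 had a peak at 20 of the 55 peaks of replicate 1, or 36.4% (95% Wilson interval 24.9 to 49.6%), against 38.9% of the whole list. In turn, 20 of the 114 peaks of replicate 2 met one of replicate 1, or 17.5% (interval 11.7 to 25.6%), against 17.2%. The intervals cover counting error only. The unshared peaks had a median fold of 4.10 in replicate 1 and 3.81 in replicate 2, and the shared ones 4.65 and 4.83. Of the unshared peaks, 5 in replicate 1 and 6 in replicate 2 came within 500 bp of a peak of the other replicate. The pair at a target gene lay at *Hes1*, where a replicate 1 peak with a fold of 5.45 and a replicate 2 peak with a fold of 4.70 were 340 bp apart, 79.0 kb and 78.3 kb above the gene.

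A further 37 genes of the pathway were counted in the same way. They comprise other receptors, ligands and targets, the nuclear complex, the Fringe glycosyltransferases, the proteases that cut the receptor, and ubiquitin ligases. A shared region lay in the window of 30 of the 37, or 81.1%, against 60.2% of all protein-coding genes, with a median of 1 per gene. Inside the gene, 3 of 37 had one, against 14.6%. The 7 genes without a shared region were *Hes6*, *Rbpj*, *Maml1*, *Adam17*, *Aph1a*, *Poglut1* and *Fbxw7*. *Rbpj*, which encodes the DNA-binding partner of every Notch receptor, had 2 replicate 1 peaks and 9 replicate 2 peaks in the window, and these did not meet.

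The genes holding shared regions were *Maml3*, *Maml2* and *Notch4*. *Maml3* and *Maml2*, Mastermind coactivator genes of 418 and 413 kb, held 6 and 3. The strongest in *Maml3*, at chr3:51970848-51971015, had a replicate 1 fold of 5.70 and a replicate 2 fold of 6.10. The strongest in *Maml2*, at chr9:13511991-13512192, had folds of 5.17 and 5.93. *Notch4*, a receptor of vessel lining cells, held 1 at chr17:34573201-34573448, with folds of 5.73 and 4.44. Outside the genes but within 20 kb, the highest lower fold was beside *Dtx1*, a Deltex ubiquitin ligase gene, at chr5:120670638-120670975 with folds of 7.31 and 6.80, where *Rasal1* was the nearest coding gene. The Fringe gene *Rfng* had a region 0.143 kb beyond its downstream end, chr11:120780362-120780602, with folds of 4.66 and 4.31, and another 17.2 kb away, nearest to *Fasn*, with folds of 5.39 and 6.91. The Fringe gene *Mfng* had one 16.9 kb away, with folds of 6.87 and 5.19. *Ncstn*, which encodes a subunit of the receptor-cutting gamma-secretase, had one with folds of 7.30 and 5.64, nearest to *Copa*. *Dlk1*, a ligand-like gene, had one 19.4 kb upstream with folds of 5.76 and 4.60.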

How the data were processed

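DLX2 CUT&Tag was performed on 2 wildtype E12.5 samples. The submitters' processing notes name Trim Galore 0.4.5, Bowtie 1.1.2, MACS2 2.2.7 and mm10, whereas the study's methods name other versions and bowtie2. The labels describe sonication, and the methods a transposase kit. The authors deposited 1 peak list per replicate, with caller settings not given in the sources used here. The lowest −log10 q was 1.00 in each list, so weakly called peaks are included. The study reported fewer peaks in each replicate and fewer in common, so the deposited lists are larger than the peak set it described. The deposited fold is a ratio of summit fragments to local background, and the deposited −log10 p and −log10 q are the caller's own. The deposited score is 10 times the −log10 q, and was not used.

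Peaks were matched to RefSeq extents of GRCm38.p6, leaving out genes listed before position 3000000. Starts came from the RefSeq promoter table. The lists give no read totals. Fragments were recovered as the whole number that gives the deposited fold, as (fragments + 1)/(background + 1), and the −log10 p, as a Poisson tail, within 0.001 for 100% of peaks. The lowest background was 0.387 fragments in replicate 1 and 1.10 in replicate 2, so replicate 2 was the deeper. Fragment recovery, peak overlap and window counting were run on simulated data. The simulated folds and −log10 p were made with the same formulas, so this checked the code and not the formulas.

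All 10 genes and their shared regions are named, with single-replicate peaks at a gene start and those nearest to a gene without a shared region. A few other single-replicate peaks, in *Notch2*, *Dll1* and beside *Hes1*, were chosen after their values were seen. Of the 37 other genes, up to 8 with a shared region within 20 kb are named by the lower of both folds, and those without one were added. Genes, lists and alternatives were chosen with earlier results of these data known. Scripts ran in Python 3.11.15 with scipy 1.17.1, pandas 2.3.3, numpy 2.4.6 and matplotlib 3.10.9.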

Additional observations from a re-analysis of the deposited data

How the results depend on the processing

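No paired analysis was possible because the 2 libraries form 1 group and no test was made. The peak thresholds moved the counts most. At a −log10 q of at least 5 the windows held 2 replicate 1 peaks, 10 replicate 2 peaks and 1 shared region (0.432 per Mb). Such a region lay at 1 of the 10 genes and at 6 of the 37 other pathway genes, against 14.9% of protein-coding genes. A fold of at least 5 left 13 and 17 peaks and 5 shared regions (2.16 per Mb). Such a region lay at 5 of the 10 genes and at 15 of the 37 others, against 28.6% of protein-coding genes. A −log10 p of at least 7 left 10 and 22 peaks, 5 shared regions (2.16 per Mb) and again 15 other genes. The lower counts follow from the filters. No background per Mb was computed at these thresholds, and no share of protein-coding genes for the −log10 p.

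A window of 50 kb left 68 replicate 2 peaks. A window of 20 kb left 20 and 39 peaks and 7 shared regions, and 13 other genes. The share of protein-coding genes was not computed for this window. A window of 250 kb gave 104 and 235 peaks and 33 shared regions. The gene extents alone held 12 and 22 peaks and 4 shared regions, at 2 genes and at 3 other genes, against 14.6% of protein-coding genes. With peaks kept only where the gene was the nearest coding gene there were 29 and 52 peaks, 12 shared regions (5.18 per Mb) and 11 other genes. Of all protein-coding genes, 25.8% hold or are nearest to a shared region, at any distance. With 50% of each peak in common there were 7 shared regions (3.02 per Mb). Peaks up to 500 bp apart, an alternative chosen after seeing the data, gave 25, and *Notch2* then had 1. The alternatives for density and for the other genes were also added later.

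Without one replicate, the count in the windows ranged from 55 to 114 (23.8 to 49.2 per Mb), at 9 to 10 of the 10 genes and 36 to 37 of the others. Of protein-coding genes, 83.0% had a replicate 1 peak in the window and 91.7% a replicate 2 peak. The merged windows of these genes held 12.6 replicate 1 peaks and 28.2 replicate 2 peaks per Mb. Of 130 counts for single genes under 13 alternatives, 73 moved by more than 1.5 times, 48 lower and 25 higher. *Jag1* and *Hey2* had 0 shared regions in each alternative that required both replicates. Peaks rest on few fragments, and why a peak of one list is missing from the other was not tested. Without a control library, occupied sites cannot be told apart from background common to both libraries.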
